A study of Arabidopsis thaliana with 18 samples.

Results

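The type-A response regulators of Arabidopsis were followed in whole seedlings in which a PLETHORA (PLT) transcription factor had been activated. The 10 loci are ARR3 (AT1G59940), ARR4 (AT1G10470), ARR5 (AT3G48100), ARR6 (AT5G62920), ARR7 (AT1G19050), ARR8 (AT2G41310), ARR9 (AT3G57040), ARR15 (AT1G74890), ARR16 (AT2G40670) and ARR17 (AT3G56380), chosen by locus and not by any measured value. All 10 were found among the 21430 probe sets of the array that are named by locus, and each of the 10 probe sets matched exactly 1 gene.

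Cytokinin is sensed by histidine kinases, and the phosphate is handed on by phosphotransfer proteins to response regulators in the nucleus. Type-B response regulators bind DNA and switch on target genes, among them the type-A genes. Type-A regulators have a receiver domain but no DNA-binding output domain. They dampen the cytokinin response, so their transcripts are widely used as a readout of cytokinin signalling. PLT proteins are AP2-domain factors known from root and shoot meristems and from embryo development.

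Each of the 5 lines carried PLT1, PLT3, PLT4, PLT5 or PLT7 fused to the hormone-binding domain of the glucocorticoid receptor (GR), which keeps a fusion protein out of the nucleus until dexamethasone (dex) is added. The fusions were driven by the 35S promoter, which is active in most tissues, so the transcript of the fusion was present without dex and in cells that do not normally make these factors. Seedlings were put into liquid medium at 4 days of age, about 50 to a flask, and 10 µM dex was added the next day for 6 h. There were 3 dex libraries each of 35S-PLT1-GR, 35S-PLT4-GR, 35S-PLT5-GR and 35S-PLT7-GR, and 2 of 35S-PLT3-GR. The mock group of 4 libraries was 35S-PLT4-GR given DMSO, the solvent, for 6 h, so the mock seedlings also carried a 35S-driven PLT fusion. Only the PLT4 line therefore has a mock of its own. In the other 4 comparisons the line and the treatment differ together and cannot be told apart. No group received dex without a fusion, and the labels do not say whether a line is 1 insertion event. All 5 comparisons share the 4 mock libraries.

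The library labelled PLT1_dex replicate 3 went against its label. The PLT1 probe set read 11.0 and 11.1 on the log2 scale in the other libraries of that group but 3.50 in this one, where the groups without a PLT1 fusion read 3.52 to 3.92. The PLT2 probe set read 10.28 in it, against 3.67 to 6.07 in the other 17. Its mean correlation with its own group was 0.968, where pairs within groups otherwise gave 0.989 to 0.997. The difference between the 3' and 5' actin control probes, a sign of RNA quality, was 2.67 in it and 1.08 to 1.64 elsewhere. It was left out of the fit, and values with it are given where it changes a call or moves a difference in the PLT1 line by much. In 2 more libraries the probe set of a PLT gene other than the line's own stood above the other libraries of the group. PLT2 read 6.07 in PLT5_dex replicate 3, and PLT3 read 6.49 in PLT7_dex replicate 1. By the labels no line of the series carried a PLT2 fusion.

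All values are normalised log2 expression values, so a step of 1 is a doubling. Differences were tested with limma over all 21430 probe sets with Benjamini-Hochberg adjustment, and "called" means an adjusted p under 0.05. The values of different probe sets are not set against each other as transcript amounts, but 7 of the 10 type-A means lay below the median of all probe sets, 5.76. The exceptions were ARR4, ARR7 and ARR9. ARR17 stayed between 3.10 and 3.27 in all 17 libraries, and the table gives no detection call that would say whether this is above background.

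**Figure D1:**
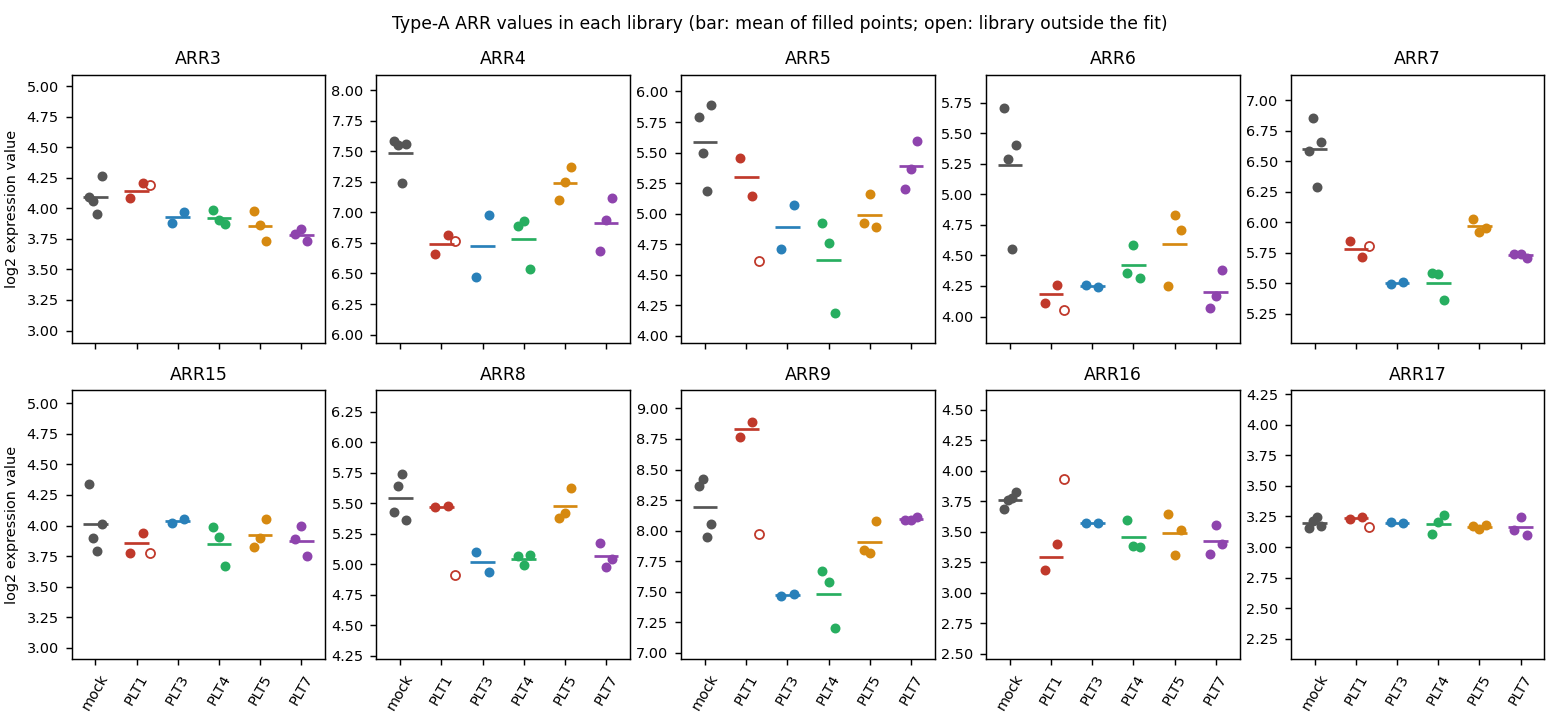
The normalised log2 expression value of each type-A ARR (vertical axis, the same span in every panel) is plotted for each library by group (horizontal axis: mock and the 5 dex lines). Bars are means of the filled points, and the open point is the library labelled PLT1_dex replicate 3. All filled dex points of ARR7 and ARR16 lie below their mock points, and ARR9 is highest in the PLT1 line, at 8.77 and 8.89.

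The type-A genes were mostly lower after dex. In the mean of the 5 lines against mock, 8 of 10 fell and none rose, where 24.2% of all probe sets fell and 25.9% rose. The median difference was -0.32 for the 10 genes and 0.01 for all probe sets. ARR6 and ARR7 fell the most, by 0.91 ± 0.15 (SE) and 0.90 ± 0.08 on the log2 scale. ARR15 and ARR17 were not called, with differences of -0.10 ± 0.09 and -0.0033 ± 0.048. With all 18 libraries 7 fell, since ARR9 was no longer called (adjusted p = 0.0867). Leaving out mock replicate 1 or 2 also ended the call of ARR9 (adjusted p = 0.154 and 0.184), as did 5 dex libraries (PLT1_dex replicate 1, both of PLT3_dex and PLT5_dex replicates 1 and 2; adjusted p from 0.0501 to 0.06). Whether fewer cells of a type or less transcript per cell lay behind a lower value cannot be told apart in RNA of whole seedlings.

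The plot of differences from mock sets the 5 lines side by side. Of the 50 differences of 10 genes in 5 lines, 28 were called lower and 1 higher, and with all 18 libraries 23 lower and 0 higher. In the PLT4 line, the comparison within 1 genotype, 7 of 10 fell, where 19.0% of all probe sets fell, with a median difference of -0.60 against -0.01 for all probe sets. All 3 PLT4 dex libraries lay below all 4 mock libraries for 6 of the 10 (ARR4, ARR5, ARR7, ARR8, ARR9 and ARR16), as they did for 19.3% of all probe sets. In the PLT3 line 6 fell (15.7% of all probe sets) and in the PLT7 line 6 (22.4%), and in neither did any rise (15.9% and 25.2%). In the PLT5 line 5 fell (15.1%). In the PLT1 line 4 fell (23.0%) and 1 rose (27.8% of all probe sets rose). With all 18 libraries these counts became 6 in PLT4, 6 in PLT3, 5 in PLT7, 3 in PLT5, and 3 lower with 0 higher in PLT1. The PLT5 count was the least stable, at 2 without PLT5_dex replicate 3 and 3 without any of 5 other single libraries (mock replicates 1, 2 and 4 and PLT5_dex replicates 1 and 2).

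**Figure D2:**
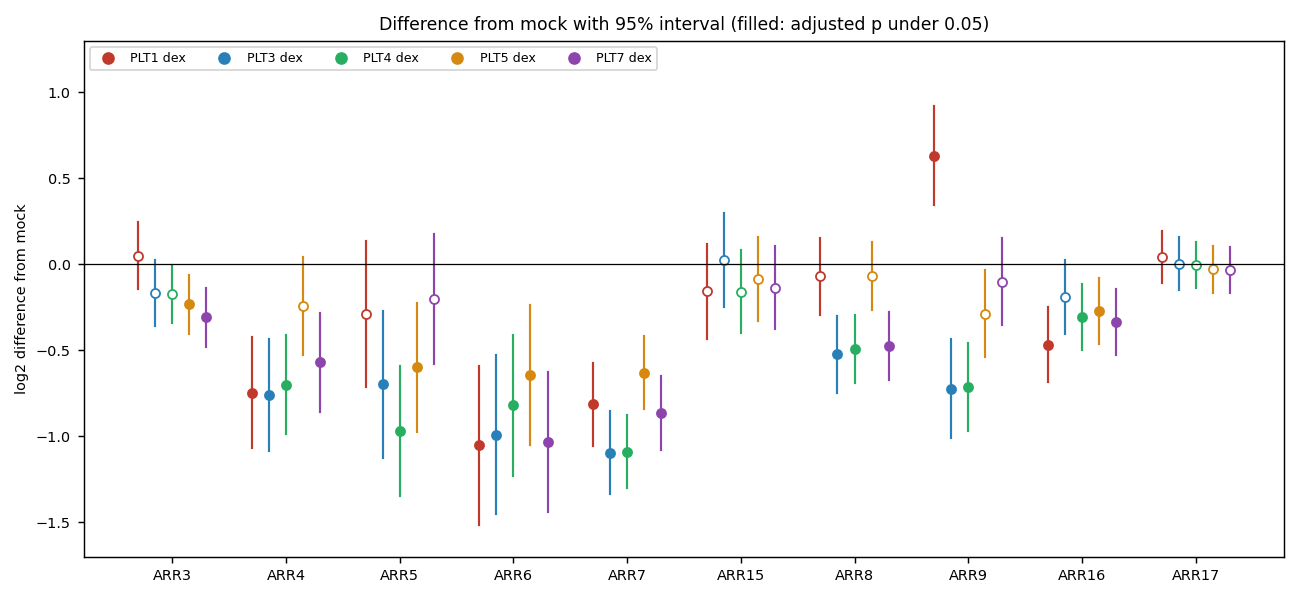
The log2 difference from mock (vertical axis) of each type-A ARR (horizontal axis) is plotted for the 5 dex lines, with 95% intervals from the fit of 17 libraries; filled points are called. ARR6 and ARR7 are filled and below 0 in all 5 lines, ARR15 and ARR17 are open in all 5, and ARR9 is the gene with filled points on both sides of 0.

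ARR5, ARR6, ARR7 and ARR15 belong to the type-A genes that cytokinin is known to induce rapidly, and ARR7 and ARR15 are known from the embryonic root pole and the shoot meristem. ARR7 read 6.58, 6.86, 6.29 and 6.66 in the mock libraries. It read 5.85 and 5.71 in the PLT1 line, 5.49 and 5.51 in PLT3, 5.58, 5.57 and 5.36 in PLT4, 6.03, 5.92 and 5.95 in PLT5, and 5.74, 5.74 and 5.71 in PLT7. Every dex library was below every mock library, and the library outside the fit, at 5.81, was too. Such a separation of all 13 dex libraries in the fit from mock was seen for 9.99% of all probe sets, and among the type-A genes for ARR7 and ARR16.

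ARR7 fell in each line, by 1.09 ± 0.10 (SE) on the log2 scale in PLT4 (2.13-fold lower; limma adjusted p = 1.58e-07). The fall was 1.09 ± 0.11 in PLT3, 0.87 ± 0.10 in PLT7, 0.81 ± 0.11 in PLT1 and 0.63 ± 0.10 in PLT5, with adjusted p from 1.3e-06 to 0.000136. ARR7 and ARR6 were the type-A genes lower in all 5 lines, which held for 9.56% of all probe sets. All 5 calls of ARR7 held in every alternative tried, and that of ARR6 in PLT5 did not. The 5 lines were not all alike for ARR7 (F test adjusted p = 0.0127), and PLT4 stood 0.46 ± 0.11 below PLT5 (adjusted p = 0.0152). That call was lost without PLT4_dex replicate 3 (adjusted p = 0.0912) and without PLT5_dex replicate 1 (adjusted p = 0.0577). Without the 3 libraries with raised signal of a PLT gene other than the line's own, the pair and the F test both lost their calls (adjusted p = 0.0638 and 0.0523). No neighbouring lines in the order of ARR7 (PLT5, PLT1, PLT7, PLT4, PLT3) were called, although the libraries of PLT1 lay wholly below those of PLT5 and the libraries of PLT4 wholly below those of PLT7.

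ARR6 read 5.71, 5.29, 4.56 and 5.40 in mock, the widest spread of the 10 genes there (SD 0.49, n = 4). It read 4.11 and 4.26 in PLT1, 4.26 and 4.24 in PLT3, 4.35, 4.58 and 4.32 in PLT4, 4.25, 4.83 and 4.71 in PLT5, and 4.07, 4.17 and 4.38 in PLT7. Mock replicate 3 was within reach of the dex groups, and 1 PLT4 and 2 PLT5 libraries lay above it. ARR6 fell by 1.05 ± 0.22 in PLT1, 1.03 ± 0.19 in PLT7, 0.99 ± 0.22 in PLT3, 0.82 ± 0.19 in PLT4 and 0.64 ± 0.19 in PLT5 (adjusted p from 0.000224 to 0.0179). The fall in PLT5 was lost without mock replicate 1 (adjusted p = 0.0601), without PLT5_dex replicate 1 (-0.47, adjusted p = 0.125) and when the compared groups were fitted alone (adjusted p = 0.0794), and the other 4 were called in all alternatives that gave a value. No difference of ARR6 between dex lines was called (F test adjusted p = 0.45), which does not show that the lines act alike.

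ARR5 read 5.79, 5.50, 5.19 and 5.89 in mock. It read 5.46 and 5.14 in PLT1, 4.71 and 5.07 in PLT3, 4.92, 4.76 and 4.19 in PLT4, 4.92, 5.16 and 4.89 in PLT5, and 5.21, 5.37 and 5.59 in PLT7. The PLT3, PLT4 and PLT5 libraries were all below mock, while PLT1 and PLT7 overlapped it. ARR5 fell by 0.97 ± 0.18 in PLT4 (1.96-fold lower; adjusted p = 0.000258), by 0.70 ± 0.20 in PLT3 (adjusted p = 0.0126) and by 0.60 ± 0.18 in PLT5 (adjusted p = 0.0166). It was not called in PLT1 (-0.29 ± 0.20, adjusted p = 0.255) or PLT7 (-0.20 ± 0.18, adjusted p = 0.394), and with all 18 libraries the PLT1 difference was -0.52 ± 0.21 (adjusted p = 0.0528). The difference between lines was itself called, with PLT4 0.77 ± 0.19 below PLT7 (adjusted p = 0.00773) and PLT1 0.68 ± 0.21 above PLT4 (adjusted p = 0.0259). The library labelled PLT1_dex replicate 3 read 4.62, and with it the PLT1 difference from PLT4 and the F test were no longer called (adjusted p = 0.209 and 0.13), nor was the fall in PLT5 (adjusted p = 0.0518). The fall in PLT3 was lost without PLT3_dex replicate 1 (adjusted p = 0.182) and that in PLT5 without PLT5_dex replicate 1 or 3 (adjusted p = 0.0639 and 0.0677). Both pair calls were lost without PLT4_dex replicate 3 (adjusted p = 0.053 for PLT7 and 0.119 for PLT1), and PLT1 against PLT4 also without PLT1_dex replicate 1 (adjusted p = 0.221). The F test was lost without PLT4_dex replicate 3 or PLT7_dex replicate 2 or 3 (adjusted p from 0.0536 to 0.0712).

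ARR15, the closest relative of ARR7, ranged from 3.79 to 4.34 in mock and from 3.67 to 4.06 over the 13 dex libraries. The groups overlapped in every line. Its differences from mock ran from -0.16 to 0.03, with adjusted p of 0.313 or more, and no pair of lines was called.

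ARR3 and ARR4 are sister genes, and ARR4 is known to bind the photoreceptor phytochrome B. ARR4 read 7.58, 7.55, 7.24 and 7.56 in mock, where replicate 3 stood apart from the rest. It read 6.66 and 6.81 in PLT1, 6.47 and 6.98 in PLT3, 6.89, 6.93 and 6.54 in PLT4, 7.10, 7.25 and 7.37 in PLT5, and 6.68, 6.94 and 7.12 in PLT7. All libraries of PLT1, PLT3, PLT4 and PLT7 were below mock, and those of PLT5 overlapped it. ARR4 fell by 0.76 ± 0.15 in PLT3, 0.75 ± 0.15 in PLT1, 0.70 ± 0.14 in PLT4 and 0.57 ± 0.14 in PLT7 (adjusted p from 0.000426 to 0.00184). In PLT5 it was not called (-0.24 ± 0.14, adjusted p = 0.208). PLT1 was 0.50 ± 0.16 below PLT5 (adjusted p = 0.023), and this was the 1 called pair of ARR4. It was lost without PLT1_dex replicate 1 or PLT5_dex replicate 2 or 3 (adjusted p from 0.0536 to 0.154), and the fall in PLT3 without PLT3_dex replicate 1 (adjusted p = 0.0532). The F test of ARR4, at an adjusted p of 0.0497, was lost without any 1 of 11 libraries, 3 of them mock (adjusted p from 0.0519 to 0.211).

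ARR3 lay between 3.95 and 4.26 in mock. It read 4.08 and 4.20 in PLT1, 3.88 and 3.97 in PLT3, 3.99, 3.90 and 3.87 in PLT4, 3.98, 3.86 and 3.74 in PLT5, and 3.79, 3.83 and 3.73 in PLT7. Its falls were small, 0.31 ± 0.08 in PLT7 (adjusted p = 0.00399) and 0.23 ± 0.08 in PLT5 (adjusted p = 0.038), and the other 3 lines were not called. Only the PLT7 libraries were all below mock. PLT1 stood above PLT7 by 0.36 ± 0.10 (adjusted p = 0.0161) and above PLT5 by 0.28 ± 0.10 (adjusted p = 0.0312). The fall in PLT5 was lost without mock replicate 1, 2 or 4 and without PLT5_dex replicate 2 or 3 (adjusted p from 0.0508 to 0.194). The fall in the mean of the lines was lost without mock replicate 1 or 4 (-0.16 and -0.11, adjusted p = 0.062 and 0.166), PLT1_dex replicate 1 or PLT3_dex replicate 1 (adjusted p = 0.0513 and 0.0528). Both pair calls were lost without PLT1_dex replicate 2 (adjusted p = 0.205 for PLT5 and 0.13 for PLT7), PLT1 against PLT5 also without PLT5_dex replicate 2 or 3 (adjusted p = 0.0656 and 0.123), and PLT1 against PLT7 without PLT7_dex replicate 3 (adjusted p = 0.0595).

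ARR8 and ARR9 form another pair of sister genes, known to respond less to cytokinin than ARR5 or ARR7. ARR9 read 8.37, 8.42, 7.95 and 8.05 in mock. It read 8.77 and 8.89 in PLT1, 7.47 and 7.48 in PLT3, 7.67, 7.58 and 7.20 in PLT4, 7.84, 7.82 and 8.08 in PLT5, and 8.09, 8.08 and 8.11 in PLT7. The PLT1 libraries were above all mock libraries, those of PLT3 and PLT4 were below them all, and those of PLT5 and PLT7 overlapped mock.

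ARR9 rose by 0.63 ± 0.14 in PLT1 (1.55-fold higher; adjusted p = 0.000763). It fell by 0.72 ± 0.14 in PLT3 (adjusted p = 0.000495) and by 0.71 ± 0.12 in PLT4 (adjusted p = 0.000115), and was not called in PLT5 (-0.29 ± 0.12, adjusted p = 0.0875) or PLT7 (-0.10 ± 0.12, adjusted p = 0.541). It was the type-A gene called in both directions, as were 1.87% of all probe sets. In the library labelled PLT1_dex replicate 3 it read 7.98, below both other libraries of that group, and with it the rise was not called (adjusted p = 0.126). The rise therefore rests on 2 libraries.

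ARR9 also differed most among the dex lines (F test adjusted p = 5.33e-06), and it kept this call with all 18 libraries (adjusted p = 0.00278). PLT1 exceeded PLT3 by 1.35 ± 0.16, PLT4 by 1.34 ± 0.14, PLT5 by 0.92 ± 0.14 and PLT7 by 0.73 ± 0.14 (adjusted p from 1.27e-06 to 0.00158). Of these, the difference from PLT7 was lost with all 18 libraries (adjusted p = 0.174). PLT7 exceeded PLT3 by 0.62 ± 0.14 and PLT4 by 0.61 ± 0.13, and both were lost with all 18 (adjusted p = 0.085 and 0.0509). PLT3 and PLT4 lay next to each other at 7.47 and 7.48.

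ARR8 read 5.43, 5.64, 5.74 and 5.36 in mock. It read 5.46 and 5.48 in PLT1, 5.10 and 4.94 in PLT3, 5.07, 4.99 and 5.08 in PLT4, 5.38, 5.42 and 5.62 in PLT5, and 5.18, 4.98 and 5.05 in PLT7. The lines fell into a lower set of PLT3, PLT4 and PLT7, entirely below mock, and a set of PLT1 and PLT5 within the mock range. ARR8 fell by 0.52 ± 0.11 in PLT3, 0.49 ± 0.09 in PLT4 and 0.47 ± 0.09 in PLT7 (adjusted p from 0.000335 to 0.000892). It was not called in PLT1 (-0.07 ± 0.11) or PLT5 (-0.07 ± 0.09), with 95% intervals of -0.29 to 0.15 and -0.26 to 0.13. The PLT1 difference with all 18 libraries was -0.26 ± 0.13 (adjusted p = 0.11), still not called.

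All 6 pairs that cross these sets were called for ARR8, with differences of 0.40 to 0.46 (adjusted p from 0.00553 to 0.0414). The sets were drawn from these same values, so the count describes them and does not test them. The library labelled PLT1_dex replicate 3 read 4.91, below the rest of its group and close to the lower set. With all 18 libraries the PLT5 and PLT7 pair kept its call (adjusted p = 0.0497) and the other 5 pairs lost theirs, while the 3 falls against mock were still called. With single libraries left out, PLT5 against PLT7 kept its call throughout. PLT3 against PLT5 was lost without any 1 of 10 libraries (adjusted p up to 0.459, without PLT3_dex replicate 2), and PLT1 against PLT7 without PLT1_dex replicate 1 or 2 or PLT7_dex replicate 2 or 3 (adjusted p from 0.054 to 0.089). PLT1 against PLT3 was lost without PLT1_dex replicate 2 or PLT3_dex replicate 2 (adjusted p = 0.0505 and 0.113), PLT1 against PLT4 without PLT1_dex replicate 2 (adjusted p = 0.0501), and PLT4 against PLT5 without PLT4_dex replicate 2 or PLT5_dex replicate 3 (adjusted p = 0.052 and 0.0795).

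ARR16 and ARR17 are sister genes of low signal, and ARR16 is known from the stomatal lineage of the leaf. ARR16 read 3.68, 3.76, 3.78 and 3.83 in mock. It read 3.18 and 3.40 in PLT1, 3.57 and 3.57 in PLT3, 3.60, 3.38 and 3.38 in PLT4, 3.65, 3.31 and 3.52 in PLT5, and 3.32, 3.56 and 3.40 in PLT7. All 13 dex libraries in the fit were below all 4 mock libraries, but the library outside the fit, at 3.93, was above them.

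ARR16 fell by 0.47 ± 0.10 in PLT1 (adjusted p = 0.000904), 0.34 ± 0.09 in PLT7, 0.31 ± 0.09 in PLT4 and 0.27 ± 0.09 in PLT5 (adjusted p = 0.00496, 0.0115 and 0.0328). PLT3 was not called (-0.19 ± 0.10, adjusted p = 0.187). None of the 5 lines was called with all 18 libraries (adjusted p from 0.0529 to 0.426), while the mean of the lines was (adjusted p = 0.0347). The fall in PLT4 was lost without PLT4_dex replicate 2 or 3 (adjusted p = 0.0535 and 0.0583) and that in PLT5 without mock replicate 2, 3 or 4 or PLT5_dex replicate 2 or 3 (adjusted p from 0.0547 to 0.202). ARR17 was not called in any line, with differences of -0.03 to 0.04 and a standard error of 0.06 to 0.07.

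Estimates of the differences between dex lines do not use the mock values, but their tests share the spread estimated over all 6 groups. Over the 10 pairs of lines and 10 genes, 18 of 100 differences were called, where 16.9% of such differences were called over all probe sets, so the share for the type-A genes is near the background. The F test called 5 of 10 (ARR4, ARR5, ARR7, ARR8 and ARR9), where 36.7% of all probe sets were called. With all 18 libraries the pairs gave 9 calls and the F test 3 (ARR3, ARR7 and ARR9). ARR8 and ARR9 held 6 called pairs each, ARR3 and ARR5 2 each, and ARR4 and ARR7 1 each. No type-A gene was called between PLT3 and PLT4, a pair in which 3.58% of all probe sets were called; at an unadjusted p under 0.05 limma gave 0 of 10 type-A genes and 14.8% of all probe sets.

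**Figure D3:**
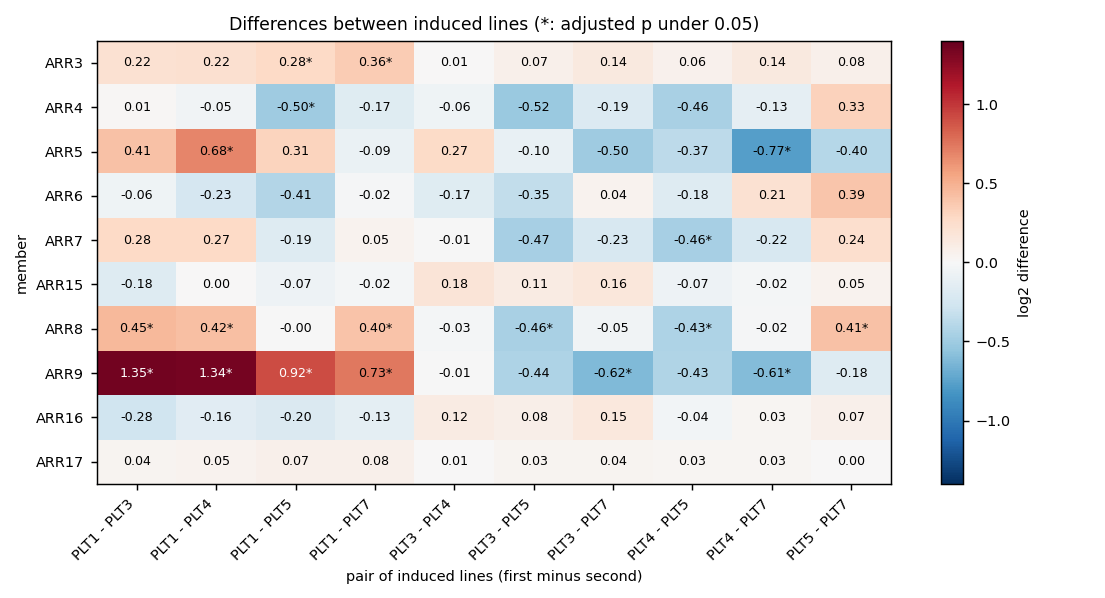
Each cell gives the log2 difference between a pair of dex lines (columns, first minus second) for a type-A ARR (rows), and an asterisk marks an adjusted p under 0.05 in the fit of 17 libraries. The darkest cells are ARR9 in PLT1 against PLT3 (1.35) and PLT4 (1.34), and the column of PLT3 against PLT4 has no asterisk.

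The 10 genes did not move as 1 block. Across the 17 libraries the highest correlations between them were ARR4 with ARR7 (r = 0.85), ARR4 with ARR6 (0.84) and ARR6 with ARR7 (0.82), none of which are sister genes. The 5 sister pairs gave r = 0.57 for ARR8 with ARR9, 0.53 for ARR5 with ARR6, 0.31 for ARR7 with ARR15, 0.27 for ARR3 with ARR4 and -0.02 for ARR16 with ARR17. These values describe the libraries, which share the mock group, their arrays and their normalisation, and ARR17, with a range of 0.168, has little spread to correlate. ARR7 was nearest to the mean of the 10 genes (r = 0.95, with ARR7 itself in that mean) and ARR17 farthest from it (-0.11). The mean of the 10 genes, each centred on its own average, was 0.12 in mock replicate 3 and 0.36 to 0.42 in the other mock libraries.

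**Figure D4:**
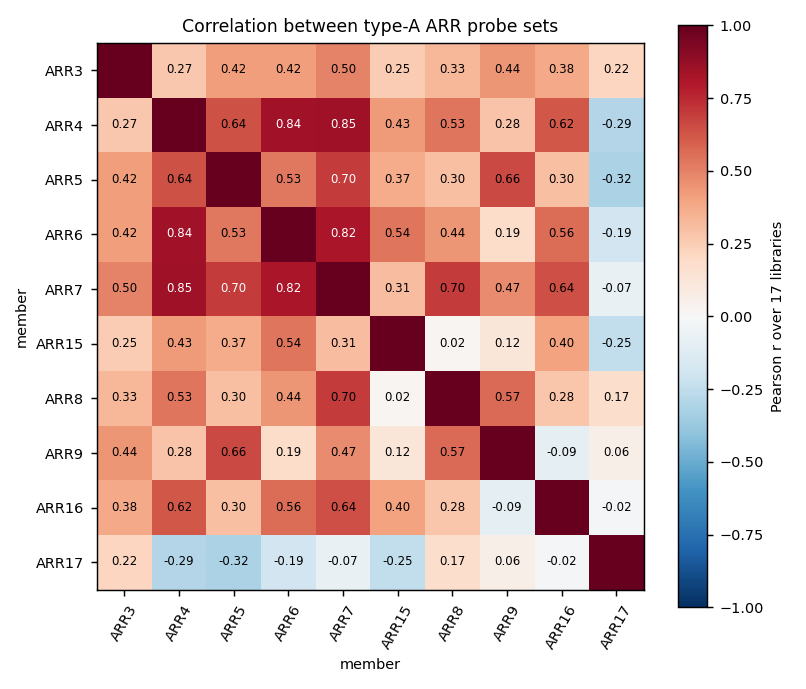
Pearson correlations over 17 libraries between the log2 values of the 10 type-A ARR probe sets (both axes) are printed in each cell. ARR4, ARR6 and ARR7 form a group with r of 0.82 to 0.85, and ARR17 has values near or below 0 with most of the others.

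The probe sets most like the mean of the 10 genes over the 17 libraries were RRA3, an arabinosyltransferase gene (r = 0.925), the bZIP factor gene TGA1 (0.920), the beta-expansin gene EXPB1 (0.912), the kinase gene PTI1-4 (0.906) and the dehydrin gene COR47 (0.897). In the mean of the lines EXPB1 fell by 1.48 ± 0.12 on the log2 scale, PTI1-4 by 0.78 ± 0.07, COR47 by 0.68 ± 0.13, TGA1 by 0.52 ± 0.09 and RRA3 by 0.29 ± 0.05. All were picked for their likeness, so these values are a description.

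The rest of the cytokinin pathway did not move one way. Among the 3 receptors, AHK3 fell by 0.60 ± 0.07 and AHK2 by 0.41 ± 0.11 in the mean of the lines, and AHK4, the main root receptor, was not called (0.16 ± 0.10). In mock AHK4 read 4.85 to 5.47, and in the PLT1 line 5.83 and 6.23, above all of them. AHK4 rose by 0.91 in PLT1 (adjusted p = 6.71e-05) and was not called in the other 4 lines. AHK3 was lower in all 5 lines, by 0.46 to 0.84 on the log2 scale.

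In the mean of the lines 3 of the 6 phosphotransfer genes rose and 2 fell, where 25.9% of all probe sets rose and 24.2% fell. AHP2 rose by 0.72 ± 0.06, AHP1 by 0.41 ± 0.08 and AHP6 by 0.45 ± 0.09. AHP6 encodes a pseudo-phosphotransfer protein that inhibits cytokinin signalling. AHP6 read 4.83 and 5.23 in PLT3 and 3.88 to 4.26 in mock, and its difference was called in PLT3 (0.94, adjusted p = 3.08e-05) and PLT7 (0.45, adjusted p = 0.00375). AHP5 fell by 0.28 ± 0.07.

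The type-B regulators, which activate the type-A genes, had 8 of 11 measured, of which 4 fell and 1 rose in the mean of the lines, with a median of -0.20. Of all probe sets 24.2% fell and 25.9% rose. ARR12 fell by 0.59 ± 0.05, ARR1 by 0.44 ± 0.06 and ARR11 by 0.32 ± 0.06, and ARR10 by 0.17 ± 0.06. The 1 that rose was ARR14, with a mean of 5.35 in mock and means of 5.46 (PLT3) to 5.66 (PLT7) in the dex lines. ARR12 read 7.59 to 7.69 in mock and no higher than 7.36 in any dex library of the fit. ARR12 was lowest in PLT3 (6.74 and 6.76) and PLT7 (6.75 to 6.82). The type-C regulator ARR22 was not called.

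The cytokinin response factors (CRF), AP2-type factors of which several are cytokinin-induced, went the other way from the type-A genes. In the mean of the lines 5 of 5 measured rose, with a median of 0.91, where 25.9% of all probe sets rose. CRF3 read 4.35 to 4.80 in mock, 8.54 and 8.62 in PLT1, 8.13 to 8.37 in PLT4, and 6.79 to 7.42 in the other 3 lines. CRF2 rose by 1.02 ± 0.09, CRF5 by 0.91 ± 0.10 and CRF6 by 0.62 ± 0.20. By line, 5 CRF genes rose in PLT1 and 5 in PLT4, where 27.8% and 20.5% of all probe sets rose, 4 in PLT3 (15.9%), 4 in PLT7 (25.2%) and 3 in PLT5 (14.2%). The PLT4 count was 4 with all 18 libraries, since CRF6 was no longer called there (adjusted p = 0.0676).

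Synthesis genes were split in the mean of the lines, with 7 of 18 higher and 6 lower and a median of -0.02. Of all probe sets 25.9% were higher and 24.2% lower. LOG3, an enzyme that releases active cytokinin from its nucleotide, rose by 1.76 ± 0.12, and LOG8 by 1.01 ± 0.08. LOG3 read 5.20 to 5.96 in mock and at least 6.44 in every dex library of the fit. IPT3, an isopentenyltransferase of the first step, fell by 0.83 ± 0.10 in the mean of the lines and most in PLT1, by 1.26. Of the 6 measured oxidases that break cytokinin down, none was called in the mean of the lines. In PLT7 2 of them were lower, where 22.4% of all probe sets were lower.

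Both transport genes fell in the mean of the lines, where 24.2% of all probe sets fell. ABCG14, which loads root cytokinin for the way to the shoot, read 6.24 to 6.57 in mock, 4.05 and 4.10 in PLT1, and 4.15 to 5.03 in PLT7. ABCG14 fell by 1.24 ± 0.12 in the mean of the lines, and the plasma membrane importer PUP14 by 0.70 ± 0.07. Of 3 other genes known as cytokinin-induced (ASL9, SHY2 and CYCD3;1) none passed the test on average over the lines, with differences of -0.14, -0.17 and 0.09. By line, 1 of the 3 was called lower in PLT1, where 23.0% of all probe sets were lower, and none in the other lines. Of the 2 regulators known to repress type-A genes in the shoot, MP, an auxin response factor known to repress ARR7 and ARR15, rose by 1.16 ± 0.09, and WUS was not called (0.03 ± 0.05). The mean levels of MP were 7.99 in PLT1, 7.60 in PLT7, 7.08 in PLT4, 6.95 in PLT3 and 6.68 in PLT5, and those of ARR7 in the same order were 5.78, 5.73, 5.51, 5.50 and 5.97. In mock the mean was 6.10 for MP and 6.60 for ARR7. A part of MP in the ARR7 values was not tested.

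**Figure D5:**
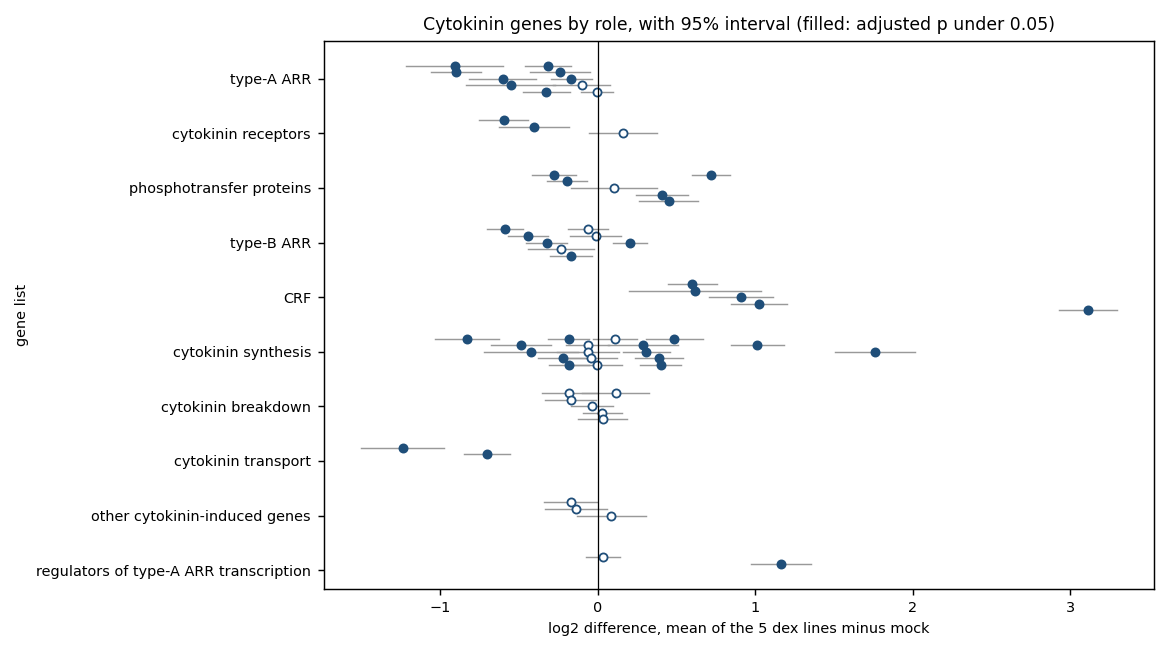
Each point is a measured gene, placed by its log2 difference of the mean of the 5 dex lines from mock (horizontal axis) within its gene list (vertical axis), with 95% intervals from the fit of 17 libraries; filled points are called. The 8 called type-A genes lie below 0, the 5 CRF genes above it up to 3.11 for CRF3, and the synthesis genes on both sides.

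Markers of several cell types moved in the same libraries. In the mean of the lines 3 of 3 root hair markers, 3 of 3 xylem markers, 2 of 3 phloem markers and both measured leaf mesophyll markers fell. In that contrast 24.2% of all probe sets fell and 25.9% rose. Of the 3 endodermis markers CASP1 fell by 2.40 ± 0.18, ESB1 fell by 1.81 ± 0.14, and SCR rose by 0.86 ± 0.06. The mean level of the xylem markers was 6.27 to 6.67 in mock, 4.85 and 4.87 in PLT1, and 5.33 to 6.03 in the other dex libraries of the fit. The root hair markers gave 5.71 to 5.92 in mock and 4.39 to 5.39 in the dex lines. Endodermis markers gave 7.70 to 8.05 in mock and 6.00 to 7.39 in the dex lines, and phloem markers 7.37 to 7.58 and 6.23 to 7.25. The leaf mesophyll markers, of which 2 of 4 were measured (RCA and GAPB), stood at 12.78 to 12.87 in mock and 12.17 to 12.62 in the dex lines. Their signal was thus high in all groups. Neither shoot meristem marker was called in the mean of the lines (STM -0.13 ± 0.08 and CLV3 -0.02 ± 0.07). Their mean levels were 4.03 to 4.23 in mock and 3.88 to 4.21 in the dex lines. By line, STM was called lower in PLT3 (mean 4.28, and 4.62 in mock), where 15.7% of all probe sets were lower. With all 18 libraries it was not called there. The clock gene CCA1, looked at after its values were seen, read 5.88 to 7.62 in mock and 4.15 to 6.00 in the dex lines. The part of these markers in the type-A values was not tested.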

How the data were processed

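RNA of whole seedlings was hybridised to 18 single-colour arrays. The deposited table holds log2 values, 1 column per array, and RMA and limma 3.24.15 are named per the submitters' processing notes, without role or order. RMA compresses differences near background. No build or detection call is given, so no coordinates are printed, and names came from the TAIR10.1 gene table. Groups follow the sample titles. The labels call the samples biological replicates, though the protocol speaks of 3 mock flasks and the titles of 4 mock libraries, and the precision is limited by the number of arrays.

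limma 3.58.1 (R 4.3.3) was fitted on the log2 values of 17 libraries with 1 coefficient per group over 21430 probe sets, leaving out 64 control rows, with two-sided moderated tests, Benjamini-Hochberg adjustment per contrast and a threshold of 0.05. It was tested on simulated data. Residual degrees of freedom were 11. Alternatives were all 18 libraries, other left-out libraries, fits of the compared groups, array weights, a trended robust prior, median centring, quantile normalisation, a filter on dim probe sets and a replicate block. Same-numbered deviations from the group means correlated at a median of -0.02 over 36 pairs (-0.16 to 0.24). Differently numbered ones gave a median of 0.02 over 83 pairs (-0.18 to 0.18). The main fit did not pair the libraries, but medians over all groups cannot exclude a pairing within a single line.

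The members, the 18 other lists (76 of 85 genes measured) and the tests were chosen with earlier results of these data known. All members are named. Of each other list, up to 4 called in the mean of the lines, by size, and otherwise up to 2 with values only, were eligible, plus the 5 genes most like the members' mean. CCA1 is outside that rule, as are ARR10 and the named uncalled genes beyond 2 of a list.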

Additional observations from a re-analysis of the deposited data

Results flagged for a closer look

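In the 4 mock libraries ARR4 had 1 library far from the rest: replicate 3, at 7.24, stood below 7.55 to 7.58, a gap of 0.914 of the whole range. Chance marks about 1 in 20 groups in this way, and 10 genes were looked at. The same library was the lowest of the mock group for ARR3, ARR5, ARR6, ARR7, ARR9 and ARR15, so for 7 of the 10 genes with ARR4, and the highest for ARR8 and ARR17. PLT4_dex replicate 3, of the same line, was likewise the lowest of its group for these 7 genes and the highest for ARR8 and ARR17. The mean of the 10 centred genes was -0.37 in it and -0.14 and -0.17 in the other PLT4 dex libraries. In PLT5 and PLT7 replicate 3 was not the lowest in this mean, at 0.06 and -0.06. A shared origin of same-numbered libraries was not tested.

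The level after dex differed between the 5 lines, by the F test of limma, for ARR9 (adjusted p = 5.33e-06), ARR8 (adjusted p = 0.00181), ARR7 (adjusted p = 0.0127), ARR5 (adjusted p = 0.0248) and ARR4 (adjusted p = 0.0497). A difference in response to dex could not be tested, since only the PLT4 line has a mock of its own. The F test called 36.7% of all probe sets. With all 18 libraries ARR9 (adjusted p = 0.00278) and ARR7 (adjusted p = 0.0182) kept this call, and ARR4, ARR5 and ARR8 did not (adjusted p = 0.0651, 0.13 and 0.0699). The test shares the spread of the mock libraries: the ARR4 call was lost without mock replicate 1, 2 or 4 (adjusted p = 0.0573, 0.06 and 0.0519), and ARR3, not called here (adjusted p = 0.0638), gained a call on leaving out mock replicate 3 (adjusted p = 0.0471) or 4 (adjusted p = 0.0363).

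In the library labelled PLT1_dex replicate 3, which is outside the fit, the PLT2 probe set read 10.28, above the highest of the other 17 libraries (6.07).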

How the results depend on the processing

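Of 29 calls of a line against mock, 19 kept their direction and call under each alternative that gave a value, among them ARR7 in all 5 lines, ARR6 in PLT1, PLT3, PLT4 and PLT7, and ARR9 in PLT3 and PLT4. So did 6 of 8 calls of the mean of the lines, 4 of 18 pairs, and 1 of 5 F tests (ARR9). With the library labelled PLT1_dex replicate 3 kept, the calls were 3 in PLT1 (from 5), 3 in PLT5 (from 5), 3 by the F test (from 5) and 9 over the pairs (from 18). Without the 3 libraries with raised signal of a PLT gene other than the line's own, PLT5 gave 2 and the F test 3. PLT5 gave 2 when only the compared groups were fitted, and 3 with median centring, with quantile normalisation and with the replicate block. With the block the other counts were 5 in PLT1, 6 in PLT3, 7 in PLT4 and 6 in PLT7. They were 7 for the mean, 5 for the F test and 19 over the pairs. A filter on dim probe sets left ARR4, ARR7 and ARR9 alone, so calls became 3 in PLT1, 3 in PLT3, 3 in PLT4, 1 in PLT5, 2 in PLT7, 3 for the mean, 3 by the F test and 11 over the pairs. With 1 library left out, calls were 5 in PLT1, 4 to 6 in PLT3, 6 to 8 in PLT4, 2 to 5 in PLT5, 6 in PLT7, 6 to 8 for the mean, 3 to 6 by the F test and 13 to 23 over the pairs; the F test gave 3 without PLT4_dex replicate 3 or PLT7_dex replicate 2. The causes were not tested.

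Values that changed sign were uncalled and near 0. With median centring ARR17 became 0.012 in PLT4, 0.0018 in PLT5, 0.020 in PLT7 and 0.030 in the mean. With quantile normalisation ARR17 became -0.0027 in PLT3, and with the replicate block ARR15 became -0.023 in PLT3. With 1 library left out, ARR17 ran from -0.0096 to 0.021 in PLT3, from -0.039 to 0.041 in PLT4 and from -0.018 to 0.013 in the mean, ARR15 from -0.047 to 0.14 in PLT3, -0.16 to 0.025 in PLT5 and -0.18 to 0.0083 in the mean, and ARR3 from -0.010 to 0.11 in PLT1. Over single genes and alternatives, 2065 of 2219 values kept their direction and call, 124 lost a call and 9 gained one. Low signal limits ARR3, ARR15, ARR16 and ARR17 most, since RMA compresses differences there.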
